A study of Mus musculus with 9 samples.

Results

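Interferon response and antigen presentation genes were examined in mouse heart cells: 38 genes were listed by name, from antiviral effectors and their regulators to the machinery of MHC class I, and were chosen for their known function. A gene was measured where a probe of the array was annotated to it alone, which held for 33 of the 38 among 19933 genes in all. Isg15, Gbp2, H2-K1 and H2-D1 were covered only by probes annotated to several genes and Ifi44 by no annotated probe, so that no value is given for these 5. The 9 samples were 3 biological replicates each of cardiomyocytes from embryos, marked by an Nkx-YFP reporter (a fluorescent protein tied to a cardiac lineage gene), of embryonic cardiac fibroblasts and of adult cardiac fibroblasts, hybridised to Affymetrix mouse Gene 1.0 ST arrays. The series looked for products of fibroblasts that act on the division of myocytes. No treatment, infection or genetic change other than the reporter is named in the labels, and the sources used here do not give the strain, embryonic stage, adult age, sexes or any time in culture. Values are RMA values on the log2 scale, on which a difference of 1 is a doubling.

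Cells that sense foreign nucleic acid secrete type I interferons, which bind a receptor made of Ifnar1 and Ifnar2 and act through the kinases Jak1 and Tyk2. The factor ISGF3, which holds Stat2 and Irf9, then binds interferon-stimulated response elements and switches on many genes that block viral replication, sense nucleic acid or feed back on the pathway. The same signals, and interferon gamma more strongly, raise the immunoproteasome, the peptide transporter and the class I molecules that display peptides to T cells.

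All 33 measured genes had a higher mean in adult fibroblasts than in both embryonic cell types. Between adult fibroblasts and cardiomyocytes 32 of 33 were called higher and 0 lower, at an adjusted p under 0.05 in limma over all genes, where 17.4% of all genes were called higher and 18.2% lower. Irf1 was the one gene not called. Between adult and embryonic fibroblasts 25 of 33 were called higher and 0 lower, against 8.34% and 11.2% of all genes. Embryonic fibroblasts stood above cardiomyocytes for 12 of 33 genes and below for 0, against 10.3% and 11.1% of all genes. The median difference of the 33 genes was 1.60 for adult fibroblasts against cardiomyocytes (all genes 0.06), 1.16 for adult against embryonic fibroblasts (all genes 0.04) and 0.53 for embryonic fibroblasts against cardiomyocytes (all genes -0.0003). The 3 comparisons share arrays pairwise, and so do their counts.

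The 3 arrays of a group lay wholly above those of the other group for 32 genes in adult fibroblasts against cardiomyocytes (24.2% of all genes, and 21.7% wholly below), 26 in adult against embryonic fibroblasts (16.9%, and 16.1% below) and 21 in embryonic fibroblasts against cardiomyocytes (19.3%, and 19.8% below). For 1 gene, Stat2, the embryonic fibroblasts lay wholly below the cardiomyocytes. The map of all 33 genes by array shows the 3 groups as steps of unequal height, with embryonic fibroblast replicate 3 and adult fibroblast replicate 2 ahead of their groups. Since each RNA came from a whole preparation of cells, fewer cells of a type and less RNA per cell cannot be told apart.

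**Figure D1:**
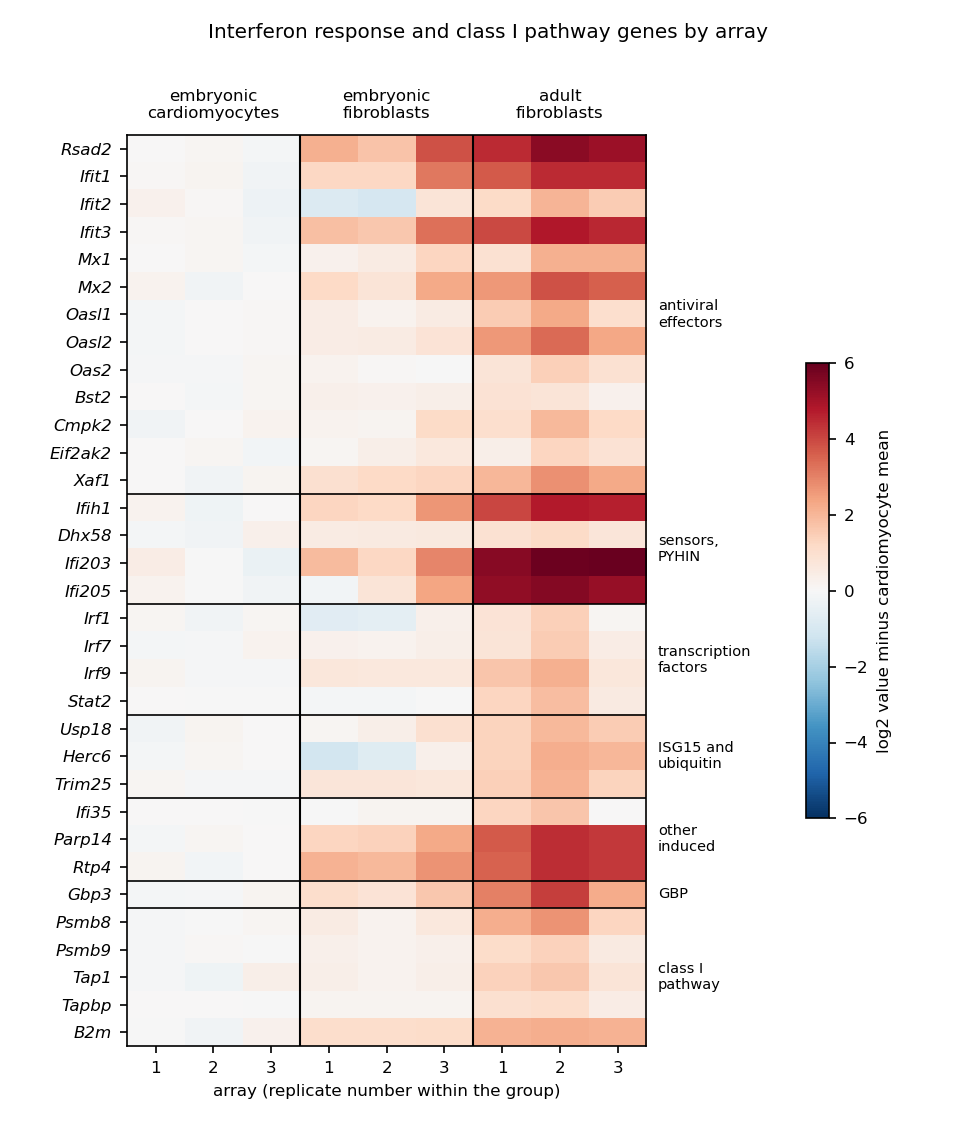
RMA value of each measured gene (rows, grouped by role) in each array (columns, replicates 1 to 3 of each group), as the log2 value minus the mean of the 3 cardiomyocyte arrays. Red is above and blue below that mean; the median over the 33 genes was 0.46, 0.50 and 0.79 in embryonic fibroblast replicates 1 to 3 and 1.42, 2.15 and 1.52 in adult fibroblast replicates 1 to 3.

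Antiviral effectors act on the virus or on the cell it infects, and 13 of the 14 listed were measured. All 13 were higher in adult fibroblasts than in cardiomyocytes, 9 were higher in adult than in embryonic fibroblasts and 5 in embryonic fibroblasts than in cardiomyocytes. The shares of all genes called higher were 17.4%, 8.34% and 10.3% in the same order. Rsad2 encodes viperin, an enzyme that makes a chain terminator of viral polymerases. Its values were 6.65, 6.73 and 6.52 in cardiomyocytes, 8.77, 8.36 and 10.46 in embryonic fibroblasts and 11.11, 12.04 and 11.75 in adult fibroblasts. The 3 groups did not overlap, and embryonic fibroblast replicate 3 stood nearer to the adult arrays than to the other arrays of its own group. Rsad2 was 32.0-fold higher in adult fibroblasts than in cardiomyocytes (log2 difference 5.001 ± 0.47, SE, adjusted p = 2.59e-05). It was 5.42-fold higher in adult than in embryonic fibroblasts (adjusted p = 0.00514) and 5.91-fold higher in embryonic fibroblasts than in cardiomyocytes (adjusted p = 0.00395). Without embryonic fibroblast replicate 3 these folds were 8.39 (adjusted p = 0.000137) and 3.82 (adjusted p = 0.00128).

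Ifit1 and Ifit3 encode tetratricopeptide proteins that bind foreign RNA and block its translation. Ifit1 read 6.65, 6.75 and 6.35 in cardiomyocytes, 7.84, 7.84 and 9.74 in embryonic fibroblasts and 10.25, 11.04 and 11.06 in adult fibroblasts. Ifit3 read 6.90, 6.96 and 6.60, then 8.64, 8.42 and 10.12, then 10.79, 11.62 and 11.35 in the same order. Both genes had no overlap between any groups, and in both replicate 3 was the highest embryonic fibroblast array by more than 1 log2 unit. Between adult fibroblasts and cardiomyocytes the fold was 18.4 for Ifit1 (4.20 ± 0.46, adjusted p = 7.72e-05) and 21.5 for Ifit3 (4.43 ± 0.40, adjusted p = 2.06e-05). Between adult and embryonic fibroblasts it was 4.96 (adjusted p = 0.00673) and 4.57 (adjusted p = 0.00393). Between embryonic fibroblasts and cardiomyocytes it was 3.71 for Ifit1 (1.89 ± 0.46, adjusted p = 0.0172) and 4.71 for Ifit3 (2.24 ± 0.40, adjusted p = 0.00354). Without embryonic fibroblast replicate 3 the Ifit1 fold was 7.68 between the fibroblasts (adjusted p = 0.000138) and 2.39 between the embryonic cells (adjusted p = 0.00765). The Ifit1 call in that last comparison was lost without cardiomyocyte replicate 1 (adjusted p = 0.0544) or replicate 3 (adjusted p = 0.0624).

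Mx2 encodes a dynamin-like GTPase that acts on incoming viruses. It read 6.74, 6.27 and 6.51 in cardiomyocytes, 7.70, 7.30 and 8.78 in embryonic fibroblasts and 9.12, 10.32 and 10.10 in adult fibroblasts, with no overlap. The fold was 10.1 between adult fibroblasts and cardiomyocytes (adjusted p = 0.00012), 3.78 between the fibroblasts (adjusted p = 0.0076) and 2.68 between the embryonic cells (1.42 ± 0.39, adjusted p = 0.0297). The last of these calls was lost when any one of cardiomyocyte replicates 1 to 3 or embryonic fibroblast replicates 1 and 3 was left out, with adjusted p = 0.0633, 0.107, 0.079, 0.0626 and 0.0723 in that order. Without embryonic fibroblast replicate 3 the difference was 1.00.

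The other 9 measured effectors, Ifit2, Mx1, Oasl1, Oasl2, Oas2, Bst2, Cmpk2, Eif2ak2 and Xaf1, differed between adult fibroblasts and cardiomyocytes by 0.62 (Bst2) to 2.77 (Oasl2), all 9 called. The call of Ifit2 was lost without cardiomyocyte replicate 3 (adjusted p = 0.0632) or adult replicate 2 (adjusted p = 0.0611). Oasl1, Oasl2 and Oas2 belong to the 2-5A synthetase family, Bst2 tethers budding virions to the cell and Eif2ak2 encodes PKR, the RNA-dependent kinase that halts translation. Ifit2 differed from its relatives, a contrast picked out after its values were seen. It read 9.33, 9.15 and 8.78 in cardiomyocytes, 8.26, 8.08 and 9.88 in embryonic fibroblasts and 10.25, 11.11 and 10.63 in adult fibroblasts. Embryonic fibroblast replicates 1 and 2 lay below every cardiomyocyte array and replicate 3 above every one. The difference was -0.35 ± 0.43 with all arrays (adjusted p = 0.67) and -0.92 without embryonic fibroblast replicate 3, where it was called lower (adjusted p = 0.0322).

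Promoters were searched for the core of the interferon-stimulated response element, which is GAAA followed by 2 bases of any kind and again GAAA, on both strands of the RefSeq window (build GRCm38.p6) from 250 bases before to 50 after each start, overlapping matches included. Of the 38 listed genes 31 were in that table, and 13 of these 31 (41.9%) held a match, against 3.99% of 27025 genes. In the 250 bases before the start alone, 11 of 31 (35.5%) held one, against 3.46% of genes. A match is a description of the letters and not a measured binding site. The 3 effectors with the largest differences all carried a match, and the stretches around them are printed because the expression results lead with these genes. Capitals mark the matches, each read 5′ to 3′ on the strand of the gene, where they stand in the reversed orientation. Ifit1 and Ifit3 each held 2 of them and Rsad2 held 1. The stretches lie at chr12:26456538-26456597 on the minus strand for Rsad2, at chr19:34640760-34640838 on the plus strand for Ifit1 and at chr19:34583348-34583441 on the plus strand for Ifit3.
Rsad2: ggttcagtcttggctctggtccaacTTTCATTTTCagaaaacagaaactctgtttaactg
Ifit1: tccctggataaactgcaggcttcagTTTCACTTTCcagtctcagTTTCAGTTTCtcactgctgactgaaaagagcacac
Ifit3: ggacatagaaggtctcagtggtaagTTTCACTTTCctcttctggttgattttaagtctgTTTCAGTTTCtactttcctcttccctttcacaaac

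Several effectors lie side by side in the genome, with 0 protein-coding genes between Rsad2 and Cmpk2 on chromosome 12, between Ifit2 and Ifit3 on chromosome 19 and between Oasl2 and Oasl1 on chromosome 5. Between embryonic fibroblasts and cardiomyocytes Rsad2 differed by 2.56 ± 0.47 and its neighbour Cmpk2 by 0.51 ± 0.31, Ifit3 by 2.24 ± 0.40 and Ifit2 by -0.35 ± 0.43, and Oasl2 by 0.60 ± 0.23 and Oasl1 by 0.39 ± 0.26. The first 2 pairs lay apart and the last close together, and the difference between neighbours was not tested.

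Sensors of foreign nucleic acid and the PYHIN genes, whose products carry a pyrin domain and, in part, DNA-binding HIN domains, held the largest differences of the 33 genes between adult fibroblasts and either embryonic group. All 4 were higher in adult fibroblasts than in cardiomyocytes (17.4% of all genes), 3 in adult than in embryonic fibroblasts (8.34%) and 3 in embryonic fibroblasts than in cardiomyocytes (10.3%). Ifi203 read 6.90, 6.42 and 6.09 in cardiomyocytes, 8.37, 7.73 and 9.39 in embryonic fibroblasts and 11.95, 12.33 and 12.40 in adult fibroblasts, with no overlap. It was 54.0-fold higher in adult fibroblasts than in cardiomyocytes (5.76 ± 0.37, adjusted p = 2.72e-06), 13.2-fold higher than in embryonic fibroblasts (adjusted p = 0.000123) and, between the embryonic cells, 4.08-fold higher in fibroblasts (adjusted p = 0.00405). Ifi205 read 6.01, 5.82 and 5.62, then 5.65, 6.58 and 8.17, then 11.13, 11.32 and 11.04 in the same order of groups. Its embryonic fibroblast arrays spread widely (SD 1.27), with replicate 1 inside the range of the cardiomyocytes, whereas its adult arrays lay close together (SD 0.14). Ifi205 was 20.6-fold higher in adult than in embryonic fibroblasts (4.37 ± 0.50, adjusted p = 0.000281) and 40.7-fold higher than in cardiomyocytes (adjusted p = 2.55e-05). Without embryonic fibroblast replicate 3 the fold between the fibroblasts was 33.2 (adjusted p = 1.23e-05). The difference between the embryonic cells was 0.98 ± 0.50 (adjusted p = 0.222), 0.30 without embryonic fibroblast replicate 3 (adjusted p = 0.506) and 1.56 without replicate 1, where it was called (adjusted p = 0.0304).

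Ifi203 and Ifi205 belong to a cluster of close relatives on chromosome 1, with 1 protein-coding gene between them, and whether their probes also bind transcripts of the relatives was not tested. Their promoters are printed to show how alike they are around the response element core. In the 60 bases shown, 40 of 60 positions were equal, and the longest shared run had 14 bases, gaaagctatgaaca, which begins in the match. The stretches lie on the minus strand at chr1:173942493-173942552 for Ifi203 and at chr1:174031855-174031914 for Ifi205 (GRCm38.p6). The match of Ifi203 starts 35 bases before the start of the gene, and the one shown for Ifi205 starts 134 bases before it. Ifi205 held another match, not shown, that starts 23 bases after the start. Both stretches were cut around the match, so that the fixed letters of the core are equal by construction.
Ifi203: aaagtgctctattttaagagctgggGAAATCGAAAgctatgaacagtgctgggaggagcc
Ifi205: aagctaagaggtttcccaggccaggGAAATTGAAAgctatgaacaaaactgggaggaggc

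Ifih1 encodes MDA5, a cytoplasmic sensor of long double-stranded RNA. It read 7.04, 6.59 and 6.86 in cardiomyocytes, 8.12, 8.04 and 9.47 in embryonic fibroblasts and 10.85, 11.57 and 11.50 in adult fibroblasts. The groups did not overlap, and embryonic replicate 3 was again the highest of its group. Ifih1 was 22.3-fold higher in adult fibroblasts than in cardiomyocytes (adjusted p = 9.77e-06), 6.79-fold higher than in embryonic fibroblasts (adjusted p = 0.00059) and 3.28-fold higher in embryonic fibroblasts than in cardiomyocytes (adjusted p = 0.00792). Dhx58 encodes LGP2, a regulator of MDA5 and RIG-I. It read 5.97, 5.88 and 6.37, then 6.55, 6.61 and 6.65, then 6.97, 7.22 and 6.80, in narrow groups that did not overlap. Its difference was 0.92 between adult fibroblasts and cardiomyocytes (adjusted p = 0.000672) and 0.53 ± 0.14 between the embryonic cells (adjusted p = 0.0257). Between the fibroblasts it was 0.39 ± 0.14 and did not pass (adjusted p = 0.0904), but it was called without cardiomyocyte replicate 3 (adjusted p = 0.0419) or adult replicate 3 (adjusted p = 0.0367). The call between the embryonic cells was lost without cardiomyocyte replicate 1 or 2 or any 1 embryonic fibroblast array, with adjusted p from 0.064 to 0.102.

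Of the transcription factors of the response, Irf1, Irf7, Irf9 and Stat2, 3 were higher in adult fibroblasts than in cardiomyocytes, 2 in adult than in embryonic fibroblasts and 0 in embryonic fibroblasts than in cardiomyocytes. Stat2 and Irf9 are parts of ISGF3. Stat2 read 8.02, 7.95 and 7.98 in cardiomyocytes, 7.85, 7.85 and 7.95 in embryonic fibroblasts and 9.27, 9.85 and 8.54 in adult fibroblasts. Both embryonic groups were tight and close to each other, and the adult arrays lay above them with an SD of 0.66. Stat2 was 2.53-fold higher in adult than in embryonic fibroblasts (1.34 ± 0.26, adjusted p = 0.00555) and 2.35-fold higher than in cardiomyocytes (adjusted p = 0.00438), and the difference between the embryonic cells was -0.10 ± 0.26 (adjusted p = 0.856).

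Irf9 read 7.78, 7.55 and 7.58 in cardiomyocytes, 8.30, 8.29 and 8.29 in embryonic fibroblasts and 9.30, 9.78 and 8.29 in adult fibroblasts. Adult replicate 3 thus stood at the level of the embryonic fibroblasts while replicates 1 and 2 lay above it. The difference between the fibroblasts was 0.83 ± 0.30 (adjusted p = 0.0891) and, without adult replicate 3, 1.25 (adjusted p = 0.000209). That between adult fibroblasts and cardiomyocytes was 1.49 (adjusted p = 0.00339). That between the embryonic cells was 0.66 ± 0.30 (adjusted p = 0.17), called without adult replicate 3, which then no longer adds to the common spread (adjusted p = 0.00364).

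Irf7 amplifies the production of type I interferon. It read 7.11, 7.16 and 7.48 in cardiomyocytes, 7.49, 7.47 and 7.602 in embryonic fibroblasts and 8.01, 8.80 and 7.68 in adult fibroblasts, with adult replicate 3 only just above the embryonic arrays. It was called between adult fibroblasts and cardiomyocytes (0.91 ± 0.24, adjusted p = 0.015), a call lost without cardiomyocyte replicate 1 (adjusted p = 0.0607) or 2 (adjusted p = 0.0553). Between the fibroblasts its difference was 0.64 (adjusted p = 0.102), and 0.88 without adult replicate 3 (adjusted p = 0.0136).

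Irf1, a factor induced by interferon gamma in the first place, was the only measured gene whose adult arrays overlapped those of cardiomyocytes. It read 8.52, 8.20 and 8.53 in cardiomyocytes, 7.74, 7.83 and 8.74 in embryonic fibroblasts and 9.26, 9.86 and 8.53 in adult fibroblasts. Replicate 3 was the highest embryonic and the lowest adult fibroblast array. The difference between the fibroblasts was 1.11 ± 0.34 with an adjusted p of 0.0499, and it did not pass without any one of the cardiomyocyte arrays, of embryonic fibroblast replicates 1 and 2 or of adult replicates 1 and 2, with adjusted p from 0.074 to 0.168. Against cardiomyocytes the adult arrays differed by 0.80 ± 0.34 (adjusted p = 0.104), and by 1.14 without adult replicate 3 (adjusted p = 0.0133). The gamma-activated sequence core, TTCNNNGAA, which reads the same on both strands, lay in the window of 6 of 31 listed genes (19.4%), Irf1 among them, against 9.55% of all genes.

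Genes of the ISG15 and ubiquitin pathway add or remove tags on proteins. All 3 measured ones were higher in adult fibroblasts than in cardiomyocytes (17.4% of all genes) and than in embryonic fibroblasts (8.34%). Usp18 removes ISG15 and shuts off signalling at Ifnar2. It read 7.15, 7.52 and 7.40 in cardiomyocytes, 7.49, 7.70 and 8.30 in embryonic fibroblasts and 8.72, 9.28 and 8.88 in adult fibroblasts, where only the embryonic groups overlapped. Usp18 was 2.19-fold higher in adult than in embryonic fibroblasts (adjusted p = 0.00521) and 3.03-fold higher than in cardiomyocytes (adjusted p = 0.000299), with a difference of 0.47 between the embryonic cells (adjusted p = 0.178). Trim25 activates RIG-I. It read 8.32, 8.11 and 8.10, then 8.91, 8.88 and 8.85, then 9.60, 10.25 and 9.49, so that no groups overlapped. Its differences were 0.70 ± 0.17 between the embryonic cells (adjusted p = 0.0181), 0.90 between the fibroblasts (adjusted p = 0.00563) and 1.60 between adult fibroblasts and cardiomyocytes (adjusted p = 7.11e-05). The first of these was lost without cardiomyocyte replicate 2 or 3 or embryonic fibroblast replicate 1 or 2, with adjusted p from 0.0593 to 0.0686.

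Herc6 encodes the mouse ligase that attaches ISG15. It read 8.23, 8.45 and 8.35 in cardiomyocytes, 7.22, 7.61 and 8.65 in embryonic fibroblasts and 9.67, 10.53 and 10.32 in adult fibroblasts. Embryonic fibroblast replicates 1 and 2 lay below every cardiomyocyte array and replicate 3 above, as in Ifit2. The difference between the embryonic cells was -0.51 ± 0.34 (adjusted p = 0.368), and without embryonic replicate 3 Herc6 was called lower (-0.92, adjusted p = 0.0283). Herc6 was 5.08-fold higher in adult than in embryonic fibroblasts (adjusted p = 0.00108) and 3.56-fold higher than in cardiomyocytes (adjusted p = 0.00202).

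Of the other induced genes, Parp14 encodes a mono-ADP-ribosyltransferase and Rtp4 a chaperone of receptors that also restrains the response. Parp14 read 6.92, 7.14 and 7.05 in cardiomyocytes, 8.33, 8.44 and 9.33 in embryonic fibroblasts and 10.70, 11.45 and 11.30 in adult fibroblasts. Rtp4 read 7.31, 7.02 and 7.17, then 9.25, 9.11 and 9.84, then 10.68, 11.61 and 11.39. In neither gene did any groups overlap, and the steps exceeded the spread within each group. Parp14 was 3.16-fold higher in embryonic fibroblasts than in cardiomyocytes (adjusted p = 0.00215) and 5.45-fold higher in adult than in embryonic fibroblasts (adjusted p = 0.000218), which gave 17.2-fold over both steps (adjusted p = 2.82e-06). For Rtp4 the same folds were 4.70 (adjusted p = 0.000378), 3.55 (adjusted p = 0.000806) and 16.7 (adjusted p = 2.18e-06).

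Ifi35, a protein that binds other interferon-induced factors, read 7.72, 7.75 and 7.68 in cardiomyocytes, 7.71, 7.86 and 7.90 in embryonic fibroblasts and 9.03, 9.40 and 7.76 in adult fibroblasts. Adult replicates 1 and 2 lay more than 1 log2 unit above replicate 3, which stood within the embryonic range. The difference between the fibroblasts was 0.90 ± 0.33 (adjusted p = 0.0977) and, without adult replicate 3, 1.39 (adjusted p = 3.96e-05). Against cardiomyocytes it was called (1.01, adjusted p = 0.0414), and the call was lost when any single array other than adult replicate 3 was left out, with adjusted p from 0.0596 to 0.124.

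Guanylate-binding proteins attack the vacuoles and membranes of intracellular pathogens and respond to interferon gamma above all. Gbp3 read 6.60, 6.65 and 6.87 in cardiomyocytes, 7.74, 7.54 and 8.32 in embryonic fibroblasts and 9.75, 10.86 and 8.92 in adult fibroblasts. The groups did not overlap, although the adult arrays spread widely (SD 0.97) with replicate 3 lowest. Gbp3 was 3.93-fold higher in adult than in embryonic fibroblasts (1.97 ± 0.41, adjusted p = 0.00805) and 8.79-fold higher than in cardiomyocytes (adjusted p = 0.000236). Between the embryonic cells it differed by 1.16 ± 0.41 (adjusted p = 0.0776), called without adult replicate 2 (adjusted p = 0.0119) or adult replicate 3 (adjusted p = 0.0141).

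Outside the effectors and PYHIN genes, the measured genes with a response element core before the start were Gbp3, Stat2 and B2m, the light chain of class I. The stretches of Gbp3 and B2m are printed as examples from the branches of the list that respond to interferon gamma as well. That of Gbp3, at chr3:142559974-142560039 on the plus strand, holds 2 matches that overlap, and that of B2m, at chr2:122147523-122147582 on the plus strand, holds 1 in the forward orientation (GRCm38.p6, capitals as above).
Gbp3: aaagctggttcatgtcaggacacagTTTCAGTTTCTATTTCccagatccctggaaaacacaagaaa
B2m: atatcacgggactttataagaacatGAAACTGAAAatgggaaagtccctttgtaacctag

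The class I pathway was measured through 5 of 7 listed genes, since the heavy chains H2-K1 and H2-D1 share their probes with other genes. All 5 were higher in adult fibroblasts than in cardiomyocytes (17.4% of all genes) and than in embryonic fibroblasts (8.34%). Between the embryonic cells 1, B2m, was higher in fibroblasts (10.3% of all genes), and 1 of 5 as a count cannot be set apart from that share. B2m pairs with every class I heavy chain. It read 10.90, 10.74 and 11.18 in cardiomyocytes, 12.01, 12.01 and 12.05 in embryonic fibroblasts and 13.04, 13.12 and 13.01 in adult fibroblasts. The groups were far apart and the fibroblast arrays nearly equal within a group, replicate 3 included. B2m was 2.12-fold higher in embryonic fibroblasts than in cardiomyocytes (1.08 ± 0.11, adjusted p = 0.000234), 2.05-fold higher in adult than in embryonic fibroblasts (1.03 ± 0.11, adjusted p = 0.00017) and 4.34-fold higher over both steps (adjusted p = 7.88e-07).

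Psmb8 and Psmb9 encode catalytic subunits that replace those of the constitutive proteasome, and Tap1 encodes one chain of the transporter that carries peptides into the endoplasmic reticulum. The 3 genes stand in a row on chromosome 17 with 0 protein-coding genes between them. Psmb8 read 6.91, 6.95 and 7.09 in cardiomyocytes, 7.48, 7.19 and 7.63 in embryonic fibroblasts and 9.16, 9.69 and 8.27 in adult fibroblasts. Psmb9 read 8.60, 8.71 and 8.65, then 8.97, 8.86 and 8.98, then 9.78, 10.02 and 9.18. Tap1 read 7.09, 6.92 and 7.52, then 7.52, 7.40 and 7.52, then 8.54, 8.79 and 7.97. In all 3 genes the adult arrays lay above all embryonic ones, with replicate 2 highest and replicate 3 lowest.

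Between adult and embryonic fibroblasts Psmb8 was 3.05-fold higher (1.61 ± 0.30, adjusted p = 0.00417), Psmb9 was 1.65-fold higher (0.72 ± 0.18, adjusted p = 0.0186) and Tap1 was 1.94-fold higher (0.96 ± 0.21, adjusted p = 0.0103). Against cardiomyocytes the adult arrays were 4.17-fold higher for Psmb8 (adjusted p = 0.000433), 2.01-fold higher for Psmb9 (adjusted p = 0.00155) and 2.39-fold higher for Tap1 (adjusted p = 0.00107). The Psmb9 call between the fibroblasts was lost without embryonic fibroblast replicate 1 (adjusted p = 0.0529), embryonic fibroblast replicate 2 (adjusted p = 0.0658) or adult replicate 1 (adjusted p = 0.0615). Between the embryonic cells the differences were 0.45, 0.28 and 0.30 with adjusted p = 0.364, 0.334 and 0.394 for Psmb8, Psmb9 and Tap1, and Psmb9 was called without adult replicate 3 (adjusted p = 0.0299). Tapbp, the tapasin that loads peptides, was the remaining gene, with differences of 0.18 between the embryonic cells (adjusted p = 0.447) and 0.65 between the fibroblasts (adjusted p = 0.00939).

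**Figure D2:**
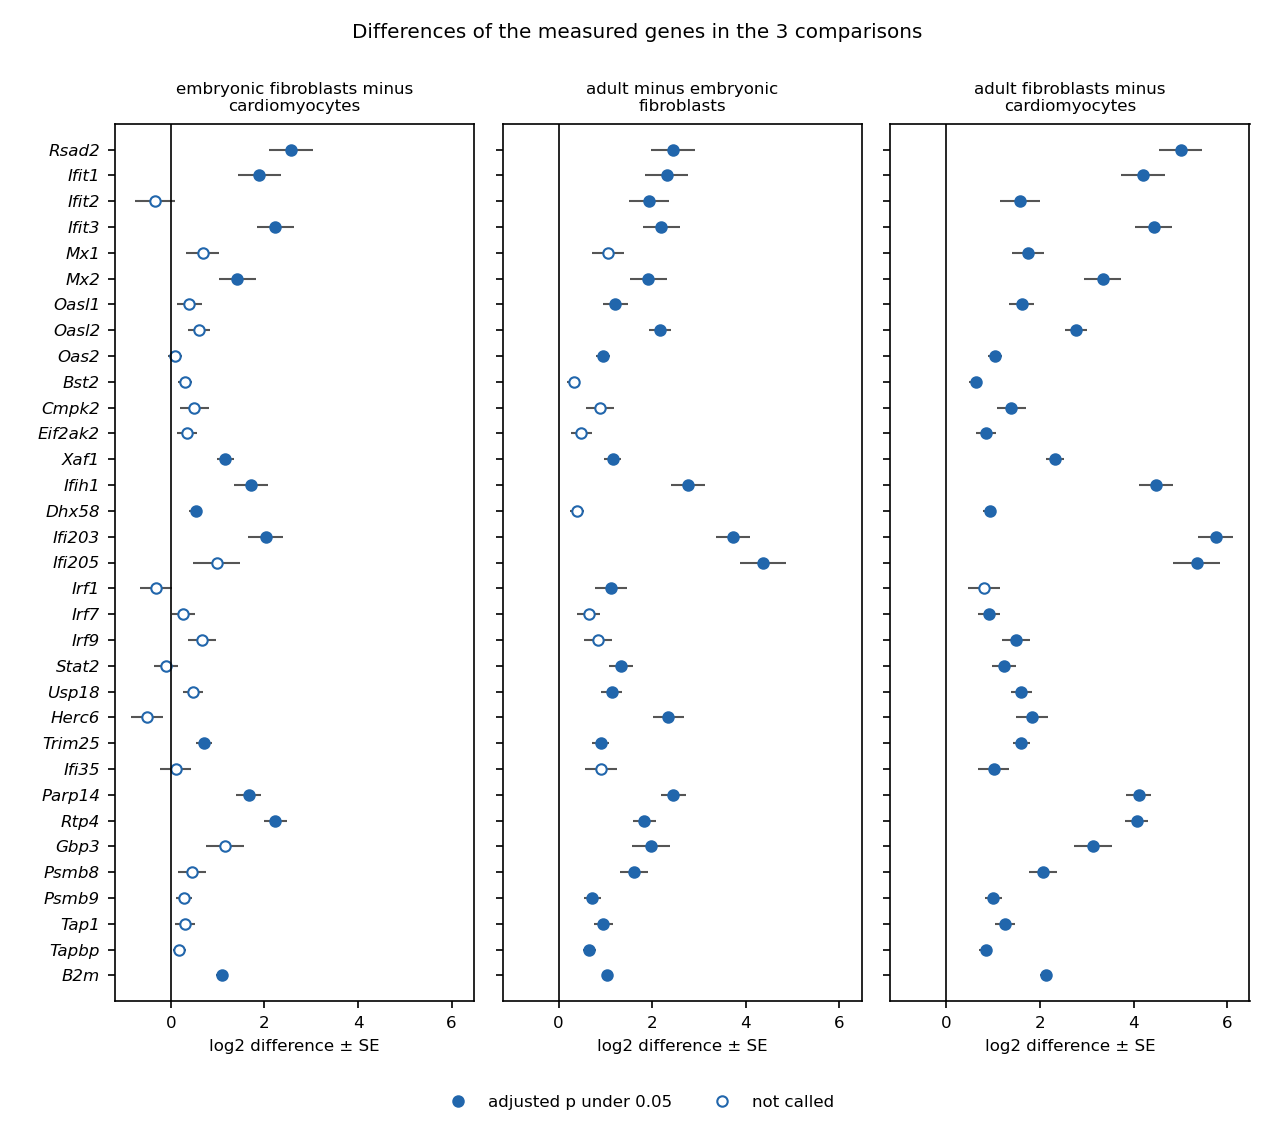
Log2 difference with its standard error for each of the 33 measured genes in the 3 comparisons (limma, 3 arrays per group, filled points have an adjusted p under 0.05). The filled points number 12, 25 and 32 from left to right, and Ifit2, Irf1, Stat2 and Herc6 lie below 0 in the first panel.

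The spread within the fibroblast groups was itself large in these genes. In embryonic fibroblasts the SD over the 3 arrays exceeded 1 for 3 of 33 genes, Rsad2, Ifit1 and Ifi205 (9.09%, against 0.0602% of all genes). The median SD of the 33 genes was 0.14 in cardiomyocytes (all genes 0.10), 0.25 in embryonic fibroblasts (0.10) and 0.45 in adult fibroblasts (0.14).

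Embryonic fibroblast replicate 3 was the highest array of its group in 28 of 33 genes (84.8%, against 30.2% of all genes). It lay more than 1 log2 unit above the mean of the other arrays of its group in 9 of the 33 (27.3%, against 0.326% of all genes). These 9 were antiviral effectors, sensors and PYHIN genes, and Herc6. The 5 class I genes took little part, with a median deviation of 0.06 and Psmb8 highest at 0.30. This was not particular to them. Irf9 (-0.005), Stat2 (0.10), Trim25 (-0.05), Bst2 (0.04), Oas2 (-0.13) and Dhx58 (0.06) of other roles deviated as little. Without this array 10 of 33 genes were called higher (9.52% of all genes) and 2 lower, Ifit2 and Herc6 (10.8%), between embryonic fibroblasts and cardiomyocytes.

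Among adult fibroblasts replicate 2 was the highest array in 30 of 33 genes (90.9%, against 24% of all genes). Replicate 1 was the lowest array in 16 of 33 genes and replicate 3 in 17, against 27.1% and 32.1% of all genes. Replicate 1 was lowest in 10 of 13 antiviral effectors and replicate 3 in the other 3, while replicate 3 was lowest in 4 of 4 transcription factors, in 5 of 5 class I genes and in Gbp3. The 4 sensors and PYHIN genes were split 2 and 2, and the roles were not tested against each other. Replicate 3 lay more than 1 log2 unit below the mean of the others for 6 of 33 genes (18.2%, against 1.89% of all genes): Irf1, Irf9, Stat2, Ifi35, Gbp3 and Psmb8. Without it 30 of 33 genes were called higher between the fibroblasts, 17 between the embryonic cells and 33 between adult fibroblasts and cardiomyocytes. The shares of all genes called higher rose as well, to 11.3%, 13.6% and 19.3% in the same order. Without replicate 3 of both fibroblast groups, an alternative chosen after seeing the data, the counts were 31, 14 and 33 (10.7%, 13.8% and 19.8% of all genes), with 3 genes lower between the embryonic cells, Ifit2, Herc6 and Irf1 (14.6%).

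**Figure D3:**
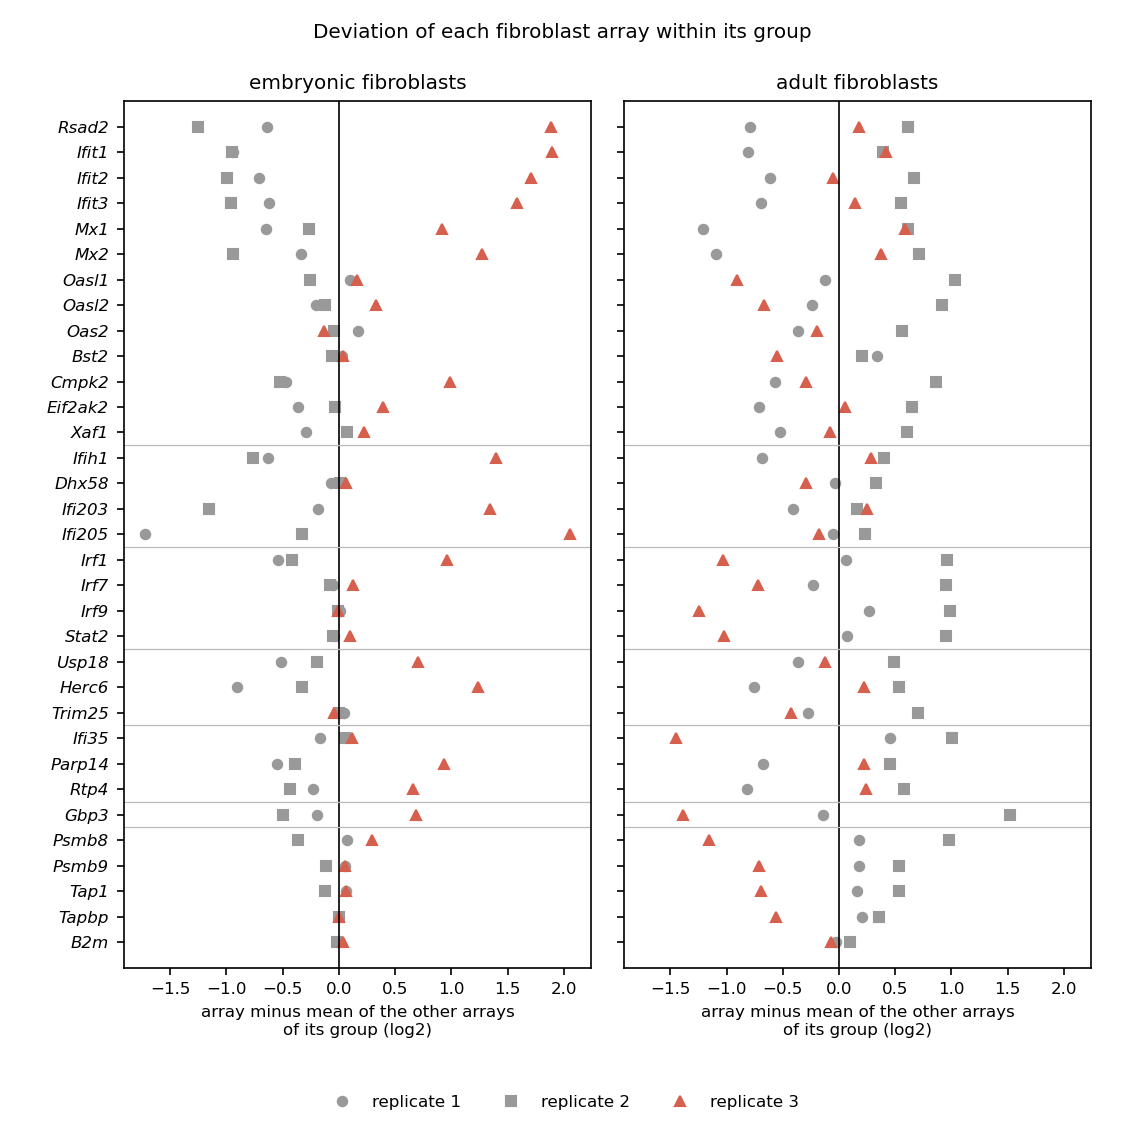
Value of each fibroblast array minus the mean of the other arrays of its group (log2), for the 33 measured genes in order of role. Replicate 3 (triangles) is the highest array in 28 of 33 genes in embryonic fibroblasts, and in adult fibroblasts it lies lowest in the transcription factors, Gbp3 and the class I genes while replicate 2 (squares) is highest in 30 of 33.

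Of 14 measured interferon genes among 19 listed, 1 was called in any comparison: Ifnb1, the interferon beta that fibroblasts typically make, which is no member of the 38. It read 6.28, 6.15 and 6.22 in cardiomyocytes, 6.21, 6.57 and 9.34 in embryonic fibroblasts and 10.07, 10.94 and 10.90 in adult fibroblasts. Embryonic fibroblast replicates 1 and 2 were close to the cardiomyocytes and replicate 3 close to the adult arrays. Ifnb1 had the largest excess of embryonic replicate 3 over the rest of its group among all 19933 genes (2.95). The difference was 3.27 ± 0.68 between the fibroblasts (adjusted p = 0.00818, and 4.25 without embryonic replicate 3) and 4.42 between adult fibroblasts and cardiomyocytes (adjusted p = 0.000675). Between the embryonic cells it was 1.16 ± 0.68 (adjusted p = 0.303), and 0.17 without embryonic replicate 3 (adjusted p = 0.734). Ifng, the gene of interferon gamma, read between 7.09 and 7.28 in all 9 arrays and was not called.

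**Figure D4:**
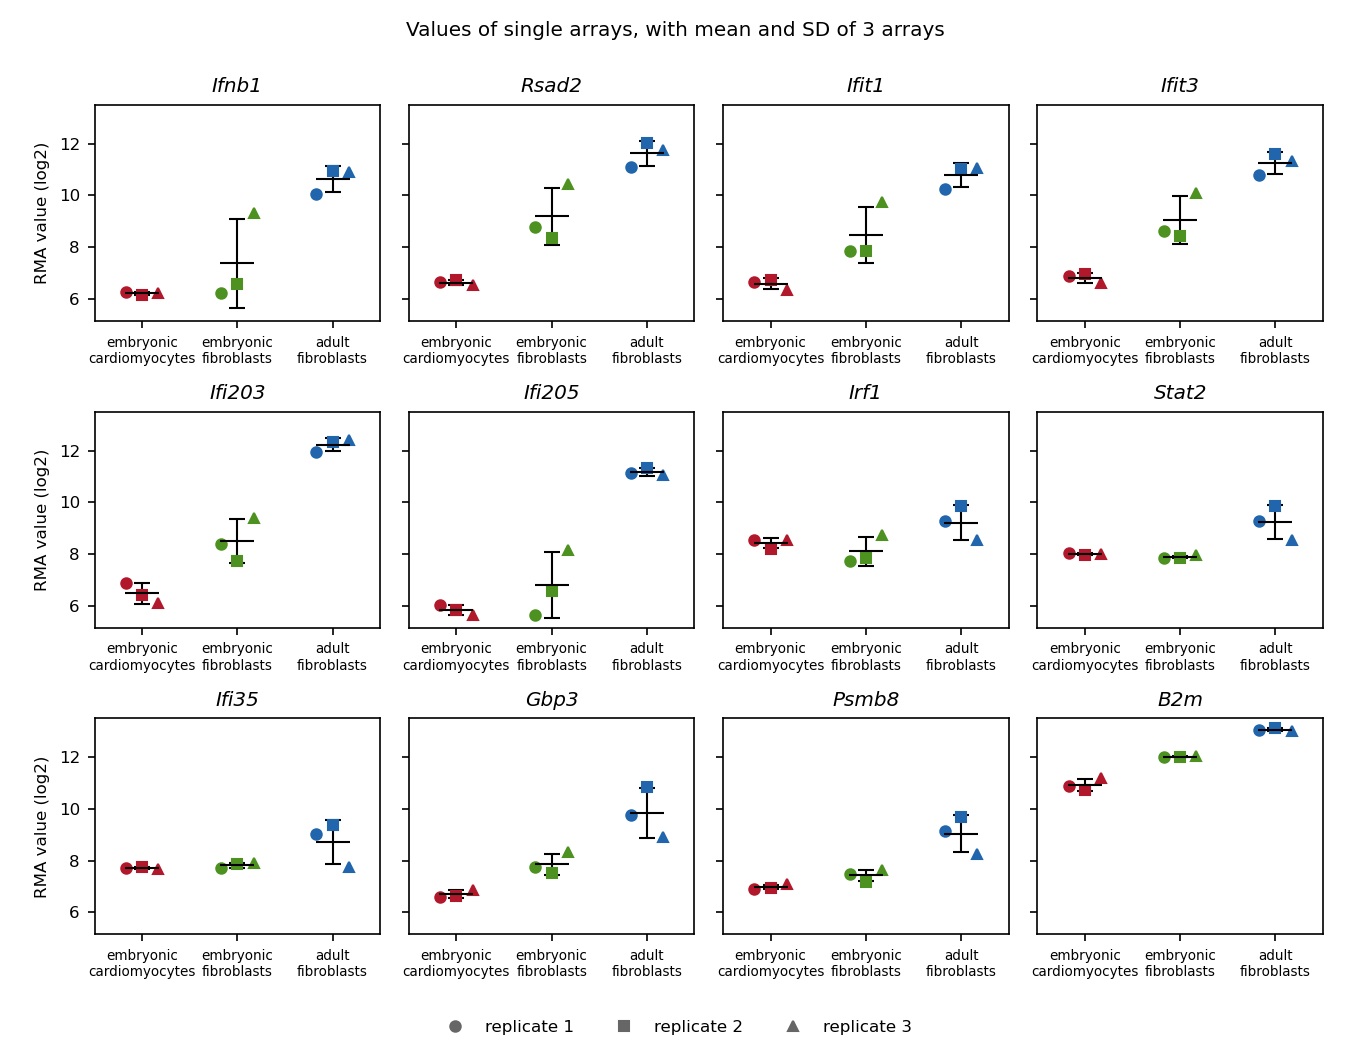
RMA values (log2) of Ifnb1 and of measured genes from each role except the ISG15 pathway in each array, with the mean (line) and SD (bars) of the 3 arrays of a group. Ifnb1, Rsad2, Ifit1 and Ifit3 show embryonic fibroblast replicate 3 (triangle) near the adult arrays, Stat2, Ifi35, Gbp3 and Psmb8 show adult replicate 3 below the other adult arrays, and B2m shows tight fibroblast groups.

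Of the receptors and transducers of interferon 9 were measured. Between the fibroblasts 5 were higher and 0 lower, against 8.34% and 11.2% of all genes. Between the embryonic cells 3 were higher and 1 lower, against 10.3% and 11.1% of all genes. Ifnar1 read between 8.39 and 8.75 in all arrays and was not called. Ifnar2, its partner, differed by 0.72 between the embryonic cells (adjusted p = 0.00473), 0.97 between the fibroblasts (adjusted p = 0.00093) and 1.69 over both (adjusted p = 1.01e-05). Of the interferon gamma receptor, Ifngr1 was higher by 1.49 in adult than in embryonic fibroblasts (adjusted p = 0.00156), while Ifngr2 was lower in embryonic fibroblasts than in cardiomyocytes (-0.61, adjusted p = 0.0106). The kinase genes Jak1 and Jak2 differed by 0.97 (adjusted p = 0.000213) and 1.12 (adjusted p = 0.000684) between the embryonic cells and by 0.71 (adjusted p = 0.000697) and 0.74 (adjusted p = 0.00556) between the fibroblasts.

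Of 11 measured genes of nucleic acid sensing and induction 5 were higher in adult than in embryonic fibroblasts and 0 lower (all genes 8.34% and 11.2%). They included Cgas, the DNA sensor, at 1.25 (adjusted p = 0.00334) and Tlr7 at 1.03 (adjusted p = 0.0114). Ddx58, which encodes RIG-I, differed by 0.87 (adjusted p = 0.0107) and Tbk1, the kinase that activates interferon regulatory factors, by 0.66 (adjusted p = 0.00682). Of 8 negative regulators 1 was higher between the fibroblasts, where 8.34% of all genes were, the phosphatase gene Ptpn2 (0.89, adjusted p = 0.00364). The count was 3 without embryonic fibroblast replicate 3, with Socs3 and Pias1 added, 3 without adult replicate 3, with Irf2 and Adar added, and 4 without both. The shares of all genes higher were then 6.67%, 11.3% and 10.7% in the same order. Between the embryonic cells Irf2, a repressor at response elements, was higher (1.07, adjusted p = 0.00314) and Socs3, an inhibitor of Janus kinases, was lower (-0.54, adjusted p = 0.0122), a call lost without embryonic fibroblast replicate 1 (adjusted p = 0.0522) or 2 (adjusted p = 0.0551).

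Of a further 37 interferon-induced effectors outside the 38, 12 were higher between the embryonic cells (10.3% of all genes) and 28 between the fibroblasts (8.34%). Between adult fibroblasts and cardiomyocytes 31 were higher (17.4%), and 0 were lower in each comparison. Leaving out 1 array at a time gave 7 to 17 between the embryonic cells, with 7 without cardiomyocyte replicate 2 and 8 without cardiomyocyte replicate 1 or 3 or embryonic fibroblast replicate 1 or 3. The share of all genes higher ran from 7.26% to 13.6% over these fits. Between the fibroblasts Sp100, a nuclear body protein, differed by 3.73 (adjusted p = 1.37e-06), the GTPase gene Iigp1 by 3.28 (adjusted p = 5.19e-05), Trim30a by 2.92 (adjusted p = 7.21e-05) and the chemokine gene Cxcl9 by 3.93 (adjusted p = 0.00149). Cxcl9 read 11.07, 12.11 and 9.06 in adult replicates 1 to 3 and between 6.69 and 7.04 in the embryonic arrays, and its difference was 3.25 without adult replicate 2 and 4.78 without adult replicate 3. Of 21 other class I pathway genes 7 were higher and 1 lower between the fibroblasts, against 8.34% and 11.2% of all genes. Between the embryonic cells 2 were higher and 0 lower, against 10.3% and 11.1%, the higher count being near the share of all genes. Without embryonic fibroblast replicate 3 these counts were 3 higher and 0 lower between the fibroblasts, and 0 higher and 1 lower between the embryonic cells. Over all arrays left out in turn 3 to 8 were higher between the fibroblasts, with 3 also without adult replicate 2 and 4 without embryonic fibroblast replicate 1. Between the embryonic cells 0 to 3 were higher, with 0 also without cardiomyocyte replicate 2 or 3 or embryonic fibroblast replicate 2, 1 without embryonic fibroblast replicate 1 and 3 without adult replicate 3. Over these fits the share of all genes higher was 5.96% to 11.3% between the fibroblasts and 7.26% to 13.6% between the embryonic cells. H2-Q4, a class I gene with close relatives that its probe may share, differed by 1.38 between the fibroblasts (adjusted p = 0.00237), the peptide-trimming enzyme gene Erap1 by 0.85 (adjusted p = 0.000138) and Cd1d1, which presents lipids, by -0.59 (adjusted p = 0.0342). The Cd1d1 call was lost without embryonic fibroblast replicate 2 or 3 or adult replicate 1 or 3, with adjusted p from 0.075 to 0.124. Nlrc5, the activator of class I transcription, differed by 0.11 between the embryonic cells and by 0.08 between the fibroblasts and was not called (adjusted p = 0.562 and 0.671).

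The labels were set beside markers of cell types. Fibroblast markers were higher in embryonic fibroblasts than in cardiomyocytes in 12 of 12 genes (10.3% of all genes). With 1 array left out the count was 10 to 12, and the share of all genes 7.26% to 13.6%. But the mean level of 12 cardiomyocyte markers was 10.82 to 11.58 in embryonic fibroblasts, against 12.44 to 12.54 in cardiomyocytes and 7.73 to 8.09 in adult fibroblasts. Arrays correlated with their own group at 0.9699 to 0.9941, adult fibroblast replicate 3 lowest. The 3 Y-linked genes looked at read 7.84 to 9.33 in the embryonic arrays and 4.67 to 6.87 in the adult ones, so that age and the sexes pooled cannot be told apart between the fibroblasts. Between adult fibroblasts and cardiomyocytes, cell type, age and the sexes pooled cannot be told apart either.

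Markers of other cells moved with some of these results. Of 14 macrophage markers 8 were higher in embryonic fibroblasts than in cardiomyocytes (4 without cardiomyocyte replicate 1 or 2 or embryonic fibroblast replicate 1 or 3, and 5 without cardiomyocyte replicate 3), 4 in adult than in embryonic fibroblasts (7 without adult replicate 1) and 11 in adult fibroblasts than in cardiomyocytes. The shares of all genes called higher were 10.3%, 8.34% and 17.4% in the same order. With 1 array left out the first ran from 7.26% to 13.6% and the second from 5.96% to 11.3%. The mean level of the macrophage markers ran from 7.47 to 7.58 in cardiomyocytes, from 8.08 to 8.41 in embryonic and from 8.54 to 9.15 in adult fibroblasts. It was highest in the same arrays as the interferon genes, replicate 3 of the embryonic and replicate 2 of the adult fibroblasts. The mean of the cardiomyocyte markers was also highest in these arrays of the fibroblast groups (11.58 and 8.09). Csf1r read 7.26 to 7.36, 7.85 to 8.07 and 7.88 to 8.51 in the 3 groups, Adgre1 6.82 to 6.98, 7.48 to 7.92 and 8.53 to 9.37, and Cd68 8.87 to 9.11, 8.97 to 9.35 and 9.93 to 10.96. Of 12 endothelial markers 10 were higher between the embryonic cells (4 without cardiomyocyte replicate 2 and 5 without embryonic fibroblast replicate 1 or 2), while between the fibroblasts 1 was higher and 2 lower (0 to 1 and 0 to 4 with 1 array left out, 0 lower without embryonic fibroblast replicate 1 or 2 or adult replicate 1 and 4 lower without adult replicate 2), and Pecam1 read 10.32 to 10.96 in embryonic and 9.33 to 11.17 in adult fibroblasts. Of all genes 10.3% were higher between the embryonic cells, and 8.34% were higher and 11.2% lower between the fibroblasts. The part of macrophages and endothelial cells in the differences of the interferon genes was not tested. Of 9 markers each of T and NK cells and of dendritic cells 0 were called between the fibroblasts. For dendritic cells this count was 1 without adult replicate 1 or 3. The marker called without adult replicate 3 was Bst2. It is also an antiviral effector measured here, so its call is not independent of the interferon genes. Of 5 neutrophil markers 1 was higher between the fibroblasts, and of 4 B cell markers 0 (each 0 to 1 with 1 array left out). Between adult fibroblasts and cardiomyocytes 2 dendritic cell, 0 T and NK cell, 1 neutrophil and 1 B cell markers were higher. Siglech, which marks plasmacytoid dendritic cells, stayed between 7.13 and 7.58 in all 9 arrays.

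**Figure D5:**
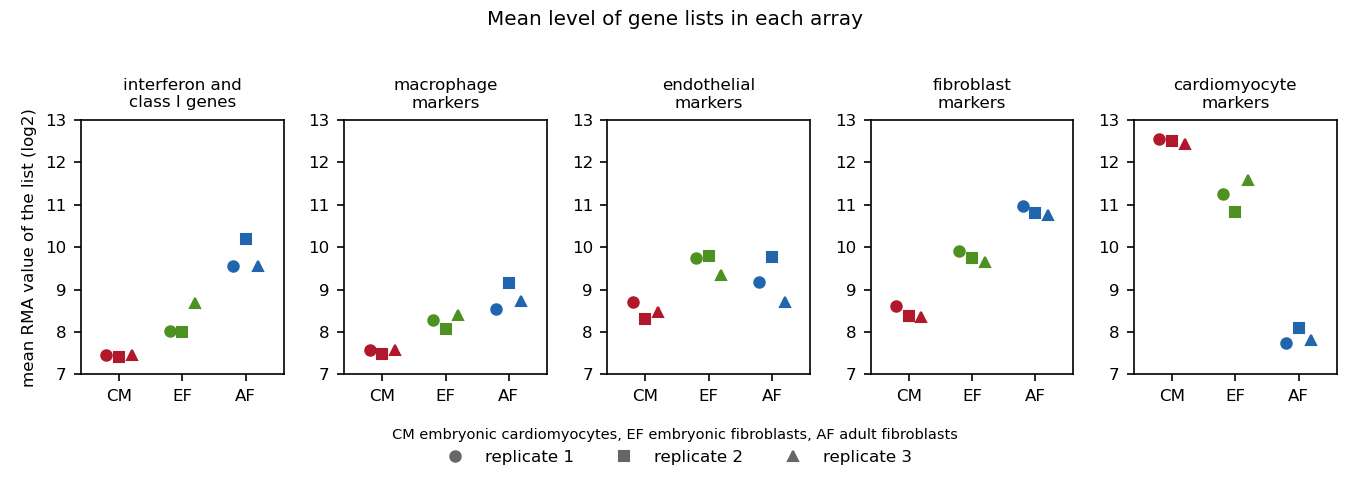
Mean RMA value (log2) of the 33 measured genes and of 4 lists of cell type markers in each array. The interferon and class I genes run from 7.42 to 7.47 in cardiomyocytes, with the embryonic fibroblasts reaching 8.67 and the adult fibroblasts at 9.55 to 10.19. The macrophage markers and the cardiomyocyte markers both have the same array on top of each fibroblast group as these genes.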

How the data were processed

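Per the submitters' processing notes, the authors made the deposited values, taken here as log2 values, with RMA, which corrects background, normalizes arrays and summarises the probes of a transcript. No version is given. Their range, 2.703 to 14.197, is that of log2 values, the scale RMA gives, but the base is unstated. Array medians lay between 7.602 and 7.651. RMA keeps no background per probe, so differences of dim genes are compressed and folds are folds between RMA values.

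Of 28767 probes 21776 were annotated to 1 gene symbol, 1618 to several and 5373 to none, through the platform annotation, and symbols were checked through Entrez identifiers in the RefSeq table of GRCm38.p6 (21686 found, 0 changed). The probe with the highest mean represented a gene, which gave 19933 genes. Without a stated build behind the array annotation, only RefSeq promoter coordinates are printed. Groups and replicate numbers came from the sample titles.

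All 9 arrays entered a model with 3 group means in limma 3.58.1 (lmFit, eBayes, R 4.3.3), checked on simulated data, with two-sided p-values adjusted by Benjamini-Hochberg over all genes and a call at an adjusted p under 0.05. Means carry the SD over the 3 arrays of a group. Differences carry the standard error (SE) of the model, from the spread of all 9 arrays moderated over genes. It is the same in all 3 comparisons of a gene and is not the spread of the 2 groups compared. The 3 arrays per group limit the precision. A deviation is an array's value minus the mean of the other arrays of its group. Plots used matplotlib 3.10.9 (Python 3.11.15).

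The 38 genes, the other lists and the markers were chosen with earlier results of these data known. Members described by array were, in each role, up to 4 called ones with the largest difference, and any with an SD over 1 in a group; the rest are given by range and count. Up to 4 called genes of each other list were named, besides Ifnb1, Ifnar1, Ifnar2, Ifngr1, Ifngr2, Nlrc5, Cd68, Csf1r, Adgre1, Pecam1 and Siglech in any case. Alternatives were a replicate block, centring, quantile normalization, a filter on dim genes, other probe rules, fits of 2 groups, array weights, a robust prior, a 2-fold minimum and leaving out arrays.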

Additional observations from a re-analysis of the deposited data

How the results depend on the processing

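The counts of genes called higher were 12 between the embryonic cells, 25 between the fibroblasts and 32 between adult fibroblasts and cardiomyocytes, and with the replicate number as a block they were 12, 25 and 32 again; between the fibroblasts 24 of the 25 genes were the same, and the block ended the call of Irf1 (adjusted p = 0.0828). The titles do not say whether the numbers pair arrays. Deviations of same-numbered arrays correlated between -0.195 and 0.198 over genes, and those of differently numbered arrays between -0.220 and 0.191. Such correlations cannot show whether arrays were paired. Fitting only the arrays of the 2 groups compared gave 19 between the embryonic cells, where the spread of the adult arrays no longer enters. The share of all genes called in that fit is not given here, so the rise cannot be read as particular to these genes. Calls gained there included Irf9 (adjusted p = 0.00129), Gbp3 (adjusted p = 0.00456), Psmb9 (adjusted p = 0.0196) and Psmb8 (adjusted p = 0.029). Leaving out 1 array at a time gave 9 to 17, 22 to 30 and 30 to 33 genes higher, and 0 to 2 lower between the embryonic cells, 2 without embryonic fibroblast replicate 3. Without replicate 3 of both fibroblast groups 3 were lower. Under all other settings run, the counts stayed within 1.5 times the values above and 0 genes were lower. Irf1 between the fibroblasts also failed with centring (adjusted p = 0.0541), with its probe of lower mean (adjusted p = 0.0655) and with only the 2 groups fitted (adjusted p = 0.128). Fits of 2 groups also ended the calls of Psmb9 between the fibroblasts (adjusted p = 0.0676) and of Ifi35 between adult fibroblasts and cardiomyocytes (adjusted p = 0.0961). Of the named genes' differences under the alternatives 1233 kept their call, 43 lost one and 32 gained one; 0 calls reversed. The shares of promoters with a motif are in the text for both windows or, for the gamma-activated core before the start alone, 16.1%.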

Other observations

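Genes outside the lists, chosen after their values were seen, stood apart in the same arrays. The chemokine gene Ccl3 read 8.33, 8.02 and 10.75 in embryonic fibroblast replicates 1 to 3 and 11.36, 12.02 and 10.61 in the adult arrays, and the PYHIN gene Ifi209 read 5.997, 5.57 and 7.83 and then 9.07, 10.17 and 10.70. After Ifnb1, Ccl3 had the second largest excess of embryonic replicate 3 over its group (2.58), ahead of Cxcl10 (2.33). The largest deficits of that array were those of Adh1 (-2.28) and Ppbp (-2.01), neither an interferon gene. Of the 65 genes more than 1 log2 unit above the rest of the group in that array, 9 were among the 33 measured genes and 7 in the other interferon and class I lists.

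The MHC class II genes H2-Aa and H2-Ab1, which display peptides to helper T cells, ranked the adult arrays as the class I pathway did. H2-Aa read 9.77, 10.98 and 8.22 in adult replicates 1 to 3 and at most 6.19 in the embryonic arrays, and was higher in adult than in embryonic fibroblasts by 3.55 (adjusted p = 0.0014), by 2.89 without adult replicate 2 and by 4.27 without adult replicate 3. H2-Ab1 read 9.07, 10.24 and 7.91 and was higher by 2.35 (adjusted p = 0.00535). Adult replicate 3 held the opposite extreme in other genes. Ifi202b, a PYHIN gene, read 5.997, 6.60 and 11.06 in the adult arrays and 6.84, 6.66 and 8.25 in the embryonic fibroblasts, the largest excess of that array among all genes (4.76). H2-Ea, a class II chain, read 5.93, 5.81 and 8.35 in the adult arrays and 5.69 to 5.85 in the embryonic ones. As background, both genes are silent in some inbred strains of mice and expressed in others; the strains used here are not stated in the labels.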
